A study of Mus musculus with 4 samples.

Results

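The genes described here are 10 enzymes that modify or crosslink collagen, out of 32285 genes counted: the lysyl oxidases Lox, Loxl1, Loxl2, Loxl3 and Loxl4, the lysyl hydroxylases Plod1 and Plod2, and the catalytic subunits of prolyl 4-hydroxylase P4ha1, P4ha2 and P4ha3. They were taken by symbol and not by a cut on their values, and each symbol matched 1 gene. The list itself was chosen with earlier results of these data known. Prolyl 4-hydroxylases act inside the cell on newly made collagen chains, and the hydroxyproline they form lets the triple helix hold together at body temperature. Lysyl hydroxylases modify lysines of the same chains, and Plod2 is the one known for the lysines at the chain ends, which decides the type of crosslink that forms later. Lysyl oxidases are copper enzymes that act outside the cell, where they oxidise lysine and hydroxylysine so that neighbouring collagen or elastin molecules become covalently linked. Cartilage and bone, which form in muscle during heterotopic ossification, are rich in such crosslinks.

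The data were 4 single-cell RNA libraries from the tibial muscle of Nse-Bmp4 mice aged 6-8 weeks on a C57BL/6 background. In these mice a rat Nse promoter, active in neurons, drives a mouse Bmp4 cDNA. One library came from uninjured muscle (Uninjured) and the others from muscle taken 1, 3 and 7 days after injury (dpi) by cardiotoxin, a venom toxin that kills muscle fibres. Every group, Uninjured included, carried the transgene, and a wild-type group was not analysed here. The effect of the transgene, and whether the response to injury depends on it, therefore cannot be read from these libraries. Each library pooled 3 muscles digested with collagenase, and each time point had 1 library. There is therefore no replicate, no test and no p-value below. Differences between time points are differences between libraries, and the intervals given are exact intervals at 95% that cover counting error only.

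The libraries held 11722 to 23752 cells and 91146335 to 129007669 UMIs (single captured RNA molecules), and the median depth was 8629 UMIs per cell in Uninjured, 5561.5 at 1 dpi, 4214 at 3 dpi and 3083 at 7 dpi. Cells were put into 10 classes by marker genes, of which the mesenchymal stem cell (MSC) lineage held 8323, 3795, 6102 and 9258 cells in the order of time. Cells with cartilage markers, called chondrocyte-like, numbered 3511 at 7 dpi and 0 in the other libraries. Most markers that the gates did not use followed the names. Col1a1 was at 4881 CPM (UMIs of a gene per 1000000 UMIs of the cells summed) in Uninjured MSC lineage cells against 174 in all other classes together. Snorc was at 2284 CPM in chondrocyte-like cells against 32.1 elsewhere at 7 dpi. The MSC lineage was less set apart at 7 dpi, with Col1a1 at 13908 CPM against 9166 in the other classes, chondrocyte-like cells included. Dcn was at 3150 against 1264 CPM there. At 1 dpi Mymk in muscle cells and Gfra3 in Schwann cells were at 0 CPM. The chondrocyte-like cells were not sharply set apart, since 74.5% of them also carried at least 2 markers of another class. At 7 dpi this share was 47.6% for endothelial cells and 42.3% for pericytes and smooth muscle cells. For muscle cells it lay between 20.6% and 29.1% over the libraries. Pairs of libraries shared 30 to 95 cell barcodes.

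B cells, which should not make lysyl oxidases, were used as a gauge of RNA free in the droplets. Whether the RNA found in them was free or came from cells captured together was not tested. In B cells Lox stood at 7.58 CPM in Uninjured, 8.01 at 1 dpi, 64.6 at 3 dpi and 72.6 at 7 dpi. The B cell value was thus highest in the libraries where MSC lineage cells held the most Lox, and it amounted to between 4.64% and 13.8% of the MSC lineage level. Col1a1 in B cells was 20.7% of its MSC lineage level at 7 dpi, against 4.10% in Uninjured. Dcn was at 5.80% and 1.29%, so the share depended on the gene. Low values of any of the 10 genes in blood cells at 7 dpi are read against these shares.

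Most of the RNA of these enzymes lay in mesenchymal cells. In Uninjured muscle MSC lineage cells held between 92.6% (P4ha3) and 98.8% (Loxl1, Loxl2) of the UMIs of each gene, while holding 87.3% of all UMIs. At 7 dpi the MSC lineage and the chondrocyte-like cells together held between 82.4% (Plod1) and 92.0% (Loxl4) of each gene, while holding 59.3% and 17.3% of all UMIs, and 69.7% of the Loxl4 UMIs were in the chondrocyte-like cells. The broadest genes were P4ha1 and Plod1, with 13.7% and 11.3% of their UMIs in monocytes and macrophages at 1 dpi, a class that held 21.5% of all UMIs there.

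**Figure D1:**
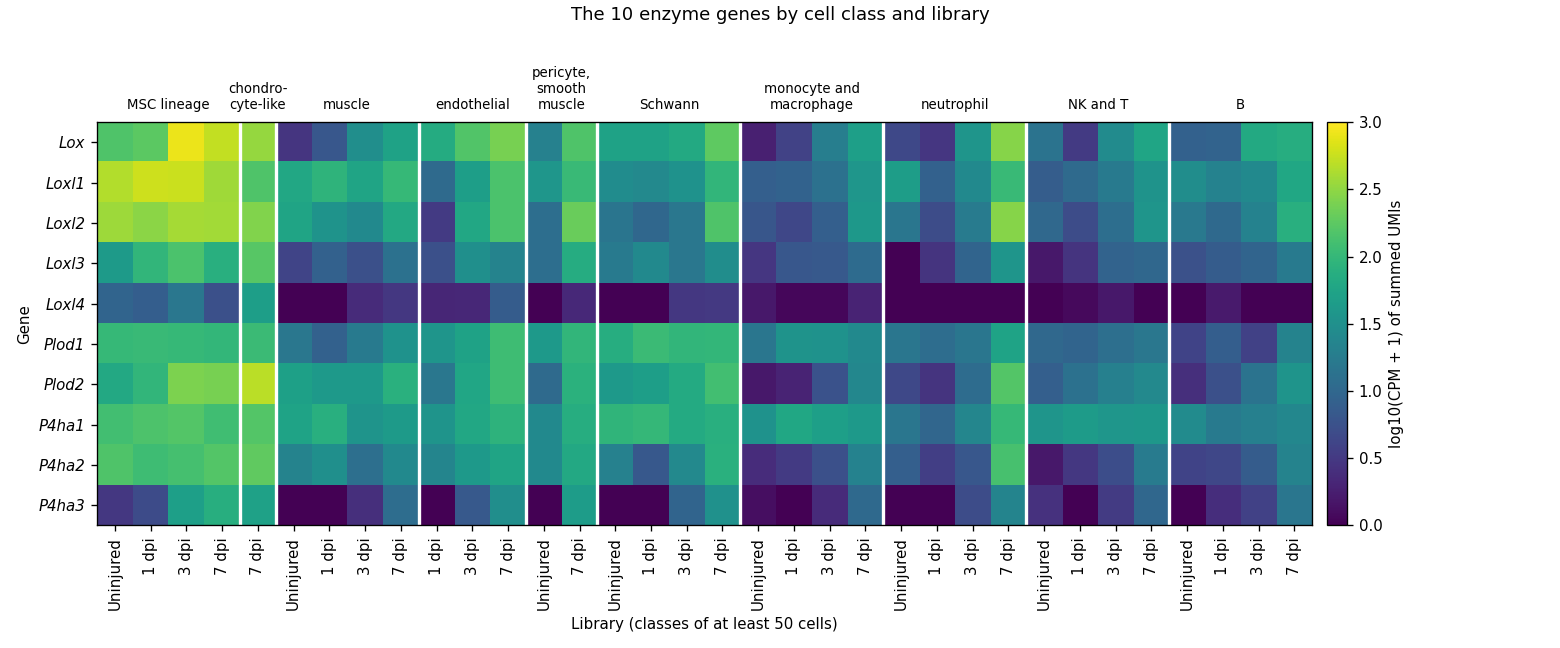
Colour gives log10(CPM + 1) of the summed UMIs of each gene (rows) in each cell class and library with at least 50 cells (columns, 34 in all). The brightest column for Lox is the MSC lineage at 3 dpi with 814 CPM, and the neutrophil column at 7 dpi rests on 131 cells. Only Loxl3, Loxl4 and P4ha3 have columns at 0.

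Lox, the founding lysyl oxidase, crosslinks fibrillar collagen and elastin. Its level in MSC lineage cells was 149 CPM in Uninjured, 173 at 1 dpi, 814 at 3 dpi and 526 at 7 dpi. It was low in the first 2 libraries and high in the last 2, with the highest value at 3 dpi. The ratio was 4.71 (4.59 to 4.84) for 3 dpi over 1 dpi and 3.53 (3.46 to 3.61) for 7 dpi over Uninjured, while 1 dpi stood 1.16 times (1.12 to 1.20) above Uninjured, a log2 ratio of 0.21 that turned to -0.19 with every deposited barcode, and 7 dpi was 1.55 times (1.53 to 1.57) below 3 dpi.

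Loxl1 is needed to renew elastic fibres. Its MSC lineage level was 451 CPM in Uninjured, 591 at 1 dpi, 579 at 3 dpi and 374 at 7 dpi. The middle 2 libraries were the high ones, and no step between neighbouring libraries reached 2-fold. Within a library the ratio of Loxl1 UMIs to Lox UMIs needs no scaling: it was 3.03 in Uninjured, 3.42 at 1 dpi, 0.711 at 3 dpi and 0.711 at 7 dpi. In the MSC lineage summed as a whole, the balance was therefore on the side of Loxl1 before 3 dpi and on the side of Lox from then on. It did not hold inside every group of these cells, since in the Smoc2 group described below Loxl1 was still above Lox at 7 dpi.

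Loxl2, an oxidase of type IV and fibrillar collagens, had 365 CPM in Uninjured, 298 at 1 dpi, 391 at 3 dpi and 381 at 7 dpi. The ratio of its highest to its lowest value was smaller than that of any other lysyl oxidase here. Loxl3, whose loss in mice affects the palate and the spine, had 42.7 CPM in Uninjured, 93.9 at 1 dpi, 141 at 3 dpi and 77.6 at 7 dpi. It was the 1 gene of the 10 that was more than 2-fold higher already at 1 dpi, with a ratio of 2.20 (2.10 to 2.31) over Uninjured, a step in which 8.32% of all genes tested were more than 2-fold higher. On the log2 scale this difference of 1.14 became 0.97 with median-of-ratios scaling and 0.77 when every cell was thinned to 1000 UMIs, both short of 2-fold. Loxl2 overlaps the antisense gene Gm27177 over 74219 bases and the 3' end of Loxl3 overlaps Htra2 over 1297 bases, both on the other strand, and the sources used here do not say whether counting used strand.

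Loxl4 was the rarest lysyl oxidase in MSC lineage cells. It had 8.29 CPM (7.66 to 8.95) in Uninjured, 6.81 (5.98 to 7.73) at 1 dpi, 14.4 (13.4 to 15.4) at 3 dpi and 4.45 (3.93 to 5.03) at 7 dpi. The 3 dpi value was the highest, 2.11 times (1.83 to 2.45) the value at 1 dpi, and the 7 dpi value the lowest, 3.23 times (2.81 to 3.73) below 3 dpi. When chondrocyte-like cells were added to the MSC lineage, the log2 ratio of 7 dpi over 3 dpi moved from -1.69 to -0.02.

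**Figure D2:**
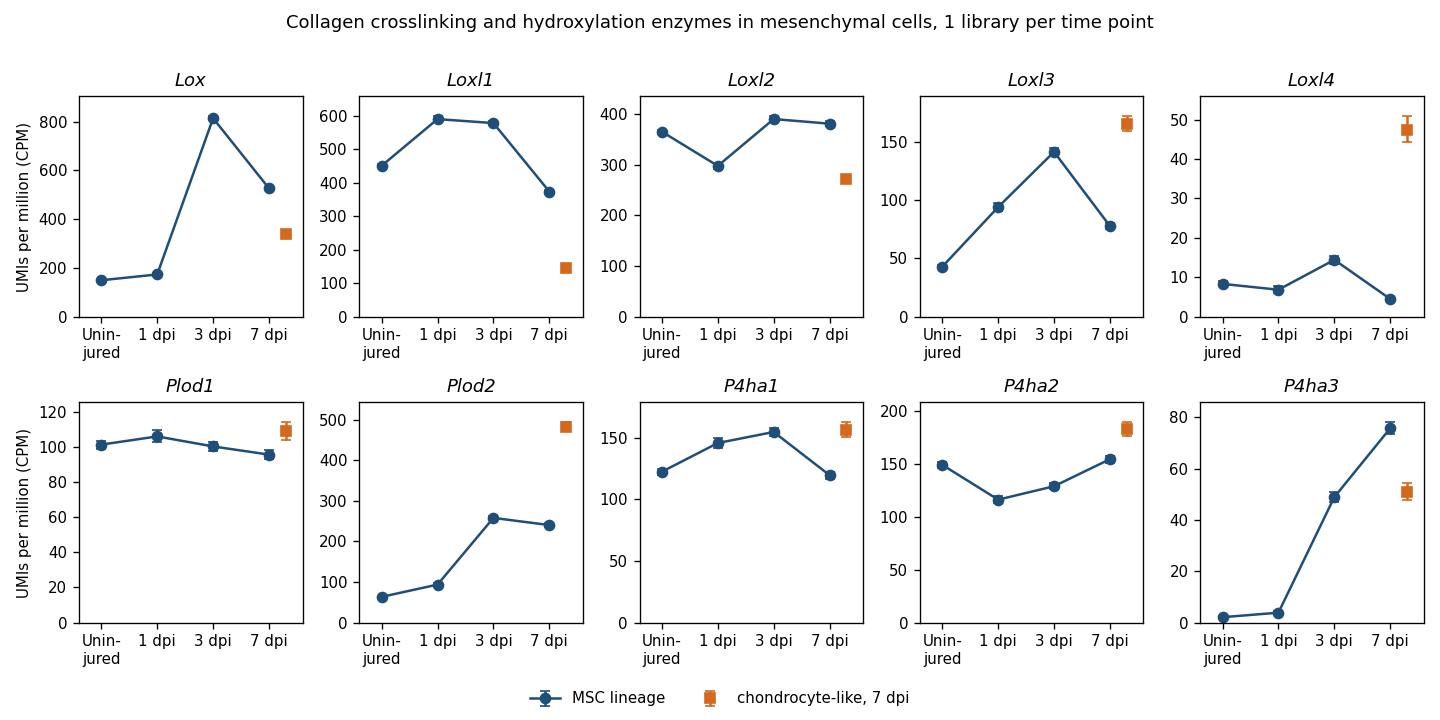
Each panel plots the level of 1 gene in CPM for MSC lineage cells of the 4 libraries (circles) and for chondrocyte-like cells at 7 dpi (square), with 95% counting intervals that are often smaller than the symbol. Lox, Plod2 and P4ha3 stand higher at 3 and 7 dpi than in the first 2 libraries. The circles of Plod1 all lie between 95.7 and 106 CPM. The squares of Loxl3, Loxl4, Plod1, Plod2, P4ha1 and P4ha2 lie above every circle, for Plod1 and P4ha1 with overlapping intervals.

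The pair of lysyl hydroxylases differed from each other. Plod1, which hydroxylates lysines of the helical part of collagen, had 101 CPM in Uninjured, 106 at 1 dpi, 100.3 at 3 dpi and 95.7 at 7 dpi, the smallest ratio of highest to lowest value among the 10 genes. Plod2, the telopeptide lysyl hydroxylase, had 63.2 CPM in Uninjured, 93.5 at 1 dpi, 258 at 3 dpi and 240 at 7 dpi. Its first 2 values were low and its last 2 high, with a ratio of 2.76 (2.66 to 2.87) for 3 dpi over 1 dpi and 3.80 (3.68 to 3.92) for 7 dpi over Uninjured. The ratio of Plod2 UMIs to Plod1 UMIs within MSC lineage cells was 0.624 in Uninjured, 0.882 at 1 dpi, 2.57 at 3 dpi and 2.51 at 7 dpi. Plod1 had the more UMIs in the first 2 libraries and Plod2 in the last 2.

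The 3 prolyl 4-hydroxylase subunits comprised 2 that were nearly even over time and 1 that was not. P4ha1, the most widely used catalytic subunit, had 122 CPM in Uninjured, 146 at 1 dpi, 155 at 3 dpi and 120 at 7 dpi. P4ha2, prominent in chondrocytes and osteoblasts, had 149, 116, 129 and 154 CPM in the same order. No step of P4ha1 or P4ha2 reached 1.5-fold. P4ha3, the scarcest subunit in most tissues, had 2.07 CPM (1.77 to 2.42) in Uninjured, 3.84 (3.22 to 4.55) at 1 dpi, 48.9 (47.1 to 50.8) at 3 dpi and 75.7 (73.5 to 78.0) at 7 dpi, from 163, 136, 2719 and 4437 UMIs. It was the one gene of the 10 whose highest value came at 7 dpi and was more than 1.5 times the value at 3 dpi. The ratio was 12.7 (10.7 to 15.2) for 3 dpi over 1 dpi and 36.5 (31.2 to 42.9) for 7 dpi over Uninjured. Relative to P4ha1 in the same cells, P4ha3 UMIs made 0.0169 in Uninjured, 0.0264 at 1 dpi, 0.316 at 3 dpi and 0.633 at 7 dpi.

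The Uninjured level of P4ha3 depended on which cells were kept. A set of 305 MSC lineage barcodes in Uninjured lay outside the limits on UMIs and genes, with a median of 37447 UMIs, and 146 of them held 436 P4ha3 UMIs, against 163 UMIs in 132 of the 8323 cells kept. The barcodes set aside had 43.2 CPM of P4ha3, 666 of Lox and 329 of Plod2, against 2.07, 149 and 63.2 in the cells kept. In the libraries after injury the barcodes set aside were nearer to the kept cells, with P4ha3 at 9.99 CPM at 1 dpi, 71.5 at 3 dpi and 92.2 at 7 dpi. With every deposited barcode included, the log2 ratio of P4ha3 for 7 dpi over Uninjured was 3.58 instead of 5.19. The same inclusion turned the log2 ratio of P4ha3 for 1 dpi over Uninjured from 0.89 to -0.52.

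Promoter sequence is shown for the subunit gene whose level was nearly even, P4ha1, for the one that was not, P4ha3, and for Loxl4, because prolyl 4-hydroxylase and lysyl oxidase genes are known as targets of hypoxia-inducible factors, which bind the core letters ACGTG or GCGTG. These are the 250 bases before the annotated start in RefSeq on GRCm38.p6, printed 5′ to 3′ on the strand of the gene, with matches of ACGTG or GCGTG on either strand in capitals.
P4ha1, chr10:59323046-59323295, plus strand: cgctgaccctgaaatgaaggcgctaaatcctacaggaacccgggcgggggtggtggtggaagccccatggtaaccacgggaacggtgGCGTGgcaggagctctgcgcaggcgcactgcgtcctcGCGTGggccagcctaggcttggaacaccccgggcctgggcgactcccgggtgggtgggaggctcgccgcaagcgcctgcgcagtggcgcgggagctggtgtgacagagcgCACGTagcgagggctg
P4ha3, chr7:100285270-100285519, plus strand: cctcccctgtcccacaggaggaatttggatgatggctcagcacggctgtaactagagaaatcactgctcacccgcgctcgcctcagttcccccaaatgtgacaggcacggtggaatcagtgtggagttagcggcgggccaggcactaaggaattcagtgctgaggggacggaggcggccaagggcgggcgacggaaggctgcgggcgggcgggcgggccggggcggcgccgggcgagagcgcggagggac
Loxl4, chr19:42612807-42613056, minus strand: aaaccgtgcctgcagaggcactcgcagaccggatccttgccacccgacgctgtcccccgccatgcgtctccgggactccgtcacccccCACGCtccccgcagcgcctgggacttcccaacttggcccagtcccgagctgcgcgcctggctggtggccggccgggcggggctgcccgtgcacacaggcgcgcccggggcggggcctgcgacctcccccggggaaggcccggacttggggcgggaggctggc
The P4ha1 window held 3 matches, that of Loxl4 1 and that of P4ha3 0, and those of P4ha2 and Plod1 held 3 and 1. Among 32851 mouse promoters of the same length 38.6% held at least 1 match and 16.7% at least 2. A match describes letters in a window and not a bound site. Promoters of 5 of the 10 genes were matched in the table.

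Read against all genes, the time course of the 10 enzymes was as follows. A gene was counted as past 2-fold when its CPM differed at least 2-fold between the sums with at least 50 UMIs over both. For 1 dpi over Uninjured 1 of the 10 was higher (Loxl3) and 0 lower, where 8.32% of the 13885 genes tested were higher and 4.34% lower. For 3 dpi over 1 dpi 4 of the 10 were higher, namely Lox, Loxl4, Plod2 and P4ha3, and 0 lower, where 5.98% of all genes were higher and 5.29% lower. For 7 dpi over 3 dpi 0 were higher and 1 lower (Loxl4), against 9.43% and 7.13% of all genes. For 7 dpi over Uninjured 3 were higher (Lox, Plod2, P4ha3) and 0 lower, against 16.1% and 11.0% of all genes. The median log2 ratio of the 10 was 0.49 for 3 dpi over 1 dpi, where that of all genes tested was -0.08, and 0.06 for 7 dpi over Uninjured, where that of all genes was 0.07. For 1 dpi over Uninjured the median was 0.23 for the 10 and 0.16 for all genes, and Plod1 went from 0.07 to -0.10 when that shift was taken out by median-of-ratios scaling.

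Shares of cells with a UMI did not always follow the summed levels, since the library with the highest thinned share was not the one with the highest CPM for Lox, Loxl2, Plod2 and P4ha1. With every cell thinned to 1000 UMIs, 9.91% of MSC lineage cells held a Lox UMI in Uninjured, 12.5% at 1 dpi, 35.0% at 3 dpi and 38.1% at 7 dpi. In B cells thinned alike the shares were 0% (up to 1.72%), 0.292%, 5.65% and 6.31%. Without thinning they were 36.8%, 45.0%, 65.5% and 75.8% of MSC lineage cells and 1.88%, 1.74%, 9.73% and 10.9% of B cells, at median depths of 9182, 8153, 6008.5 and 4249 UMIs in the MSC lineage and 2455, 2840, 1774 and 1465.5 in B cells. The Lox share was highest at 7 dpi and its CPM at 3 dpi, so no order of these libraries is read from the share. Plod2 was found in 5.97%, 8.18%, 17.5% and 19.6% of thinned MSC lineage cells (36.7%, 44.0%, 54.2% and 55.9% unthinned), with B cells between 0.292% and 2.43%. P4ha3 was found in 0.0961%, 0.264%, 3.02% and 6.25% (1.59%, 2.82%, 23.5% and 29.9% unthinned), and in the thinned B cells of the 4 libraries at most 1 cell held a P4ha3 UMI.

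**Figure D3:**
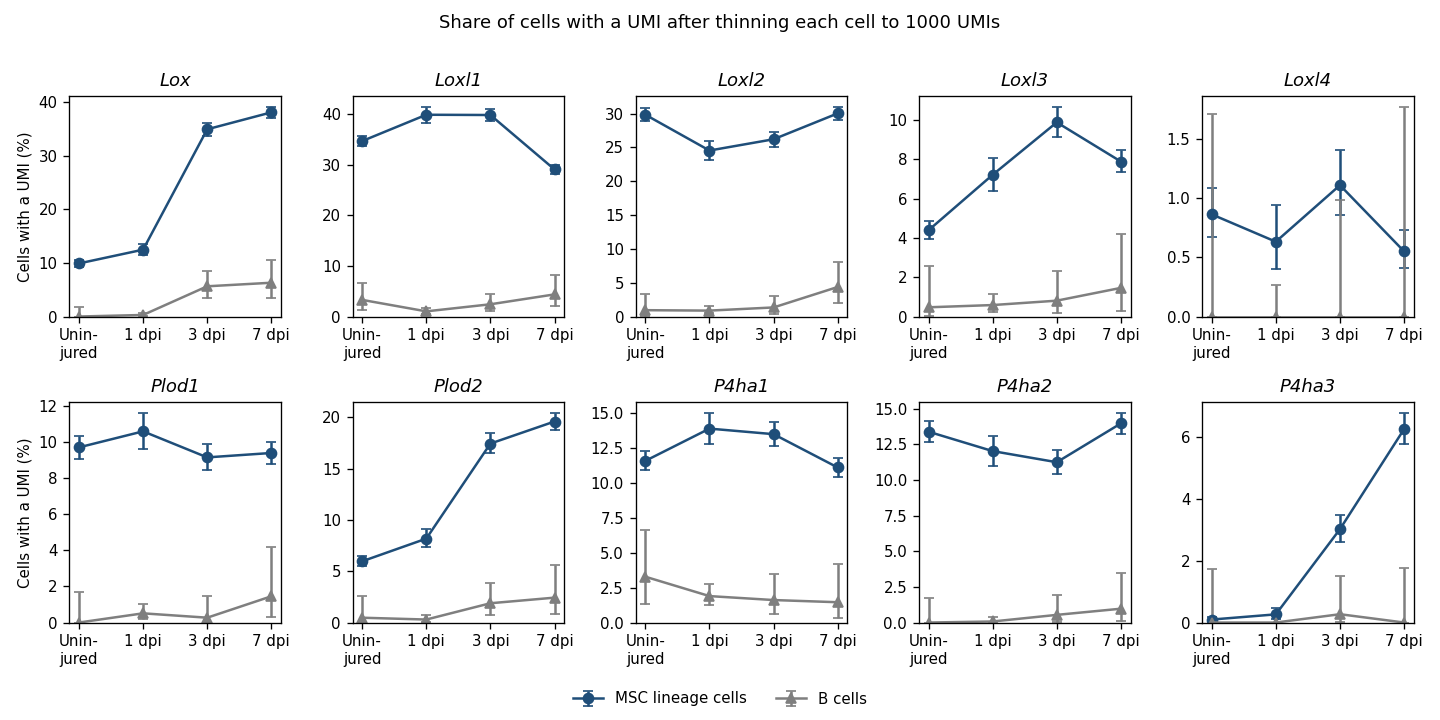
Each panel gives the percentage of cells with at least 1 UMI of a gene after each cell was thinned to 1000 UMIs, for MSC lineage cells (circles) and B cells (triangles), with Clopper-Pearson 95% intervals. MSC lineage shares exceed B cell shares in every library for Lox, Loxl1, Loxl2 and Plod2, whereas for Loxl4 the intervals of both classes overlap in all but the 1 dpi library.

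The enzymes were also read against the collagen message itself. Per 1000 UMIs of Col1a1, Col1a2 and Col3a1 in MSC lineage cells, there were 6.60 Lox UMIs in Uninjured, 17.8 at 1 dpi, 41.5 at 3 dpi and 14.0 at 7 dpi. Plod2 gave 2.80, 9.62, 13.2 and 6.38 in the same order, and both genes were highest at 3 dpi, as they were in CPM. Plod1 gave 4.49, 10.9, 5.12 and 2.54, and P4ha1 5.42, 15.0, 7.90 and 3.18, so these even genes were highest per collagen at 1 dpi, when collagen itself was at its lowest. P4ha3 gave 0.0919, 0.396, 2.50 and 2.01.

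The other genes of the pathway were taken as 45 genes in 5 lists, also chosen with earlier results of these data known. For 7 dpi over Uninjured in MSC lineage cells 18 of the 45 were more than 2-fold higher and 2 lower, where 16.1% of all genes tested were higher and 11.0% lower, with a median log2 ratio of 0.87 against 0.07 for all genes tested. Of the 12 genes that fold or modify collagen inside the cell, 6 were higher. Fkbp10, a chaperone that assists Plod2, was 2.97 times higher, and P4hb, the partner subunit of the collagen prolyl 4-hydroxylases, 2.49 times. The prolyl 3-hydroxylase gene P3h1 was 2.46 times higher, and P3h2 8.71 times from 0.407 CPM. P3h4 was 2.41 times higher, and Plod3, the third lysyl hydroxylase, 2.23 times. Colgalt2, a collagen galactosyltransferase, was lower with a ratio of 0.216. Thus P4hb was more than 2-fold higher while P4ha1 and P4ha2 had ratios of 0.977 and 1.04, and of the lysyl hydroxylases Plod2 and Plod3 were higher and Plod1 was not.

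Of the 12 genes for procollagen processing and lysyl oxidase assembly, 4 were higher at 7 dpi than in Uninjured and 1 was lower. Postn, a matrix protein that brings Bmp1 to Lox, was 13.3 times higher, at 3874 against 291 CPM. Fmod, a proteoglycan that binds Lox on collagen, was 5.31 times higher, Fn1 2.02 times and Tll1 2.16 times, whereas Bmp1, the protease that activates pro-Lox, had a ratio of 0.831. Pcolce2, an enhancer of procollagen C-proteinase, was lower with a ratio of 0.110. None of the 3 copper and vitamin C transporters passed 2-fold. Of 8 substrates 3 were higher (Col1a1 2.85 times, and the cartilage collagens Col11a1, at 381 against 6.24 CPM, and Col2a1, at 215 against 1.02 CPM). The 7 dpi library also held the chondrocyte-like cells, and how far their RNA adds to these 2 cartilage collagens was not tested. Of 10 hypoxia response genes 5 were higher, namely Pgk1, 4.15 times, Ldha, 3.18 times, Slc2a1, 2.97 times, Pdk1, 2.87 times, and Bnip3, 2.41 times, while Vegfa had a ratio of 0.535 and Egln3, an oxygen-sensing prolyl hydroxylase, 0.864.

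Over the single steps fewer of the 45 were past 2-fold. For 1 dpi over Uninjured 3 of the 45 were higher (P4hb, P3h2, Slc2a1) and 3 lower (Col1a1, Col3a1, Postn), against 8.32% and 4.34% of all genes tested, so the share that was higher was not above that of all genes. For 3 dpi over 1 dpi 8 of 44 were higher, with Postn at 13.7 times and P3h2, Adamts3, Fn1, Col1a1, Col3a1, Col5a2 and Ldha between 2.04 and 2.59 times, and Colgalt2 was lower, against 5.98% and 5.29% of all genes. For 7 dpi over 3 dpi 9 of 45 were higher, namely P3h4, Tll1, Fmod, Postn, Col1a1, Col2a1, Col11a1, Bnip3 and Ankrd37, and Colgalt2, Pcolce2 and Ndrg1 were lower, against 9.43% and 7.13% of all genes. P3h4 was 2.50 times higher in the last of these steps, in which Lox and Plod2 were not higher.

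MSC lineage cells were divided into groups by marker genes, since fibroblast-like cells of muscle are not uniform. Cells with Pi16, Dpp4, Anxa3 and Sema3c form the Pi16 group, cells with Smoc2, Col15a1, Hsd11b1 and Lpl the Smoc2 group, cells with Lrrc15, Tnn, Cthrc1 and Aspn the Lrrc15 group, and cells with tendon markers (Tnmd, Thbs4, Kera, Scx) the Tnmd group. The Lrrc15 group had 5 cells in Uninjured, 7 at 1 dpi, 341 at 3 dpi and 5271 at 7 dpi. The makeup of the lineage thus differed between libraries, and levels inside a group are given for that reason.

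Inside the Pi16 group Lox had 92.8 CPM in Uninjured, 126 at 1 dpi, 668 at 3 dpi and 683 at 7 dpi, a ratio of 7.36 (6.99 to 7.75) for the last over the first. Inside the Smoc2 group it had 135, 159, 512 and 264 CPM, a ratio of 1.95 (1.84 to 2.07). Both groups were higher at 3 and 7 dpi than before, and at 7 dpi the Pi16 group was the higher. Cells in no group had 317, 223, 959 and 527 CPM of Lox, and the Gdf10 group had 524 CPM in Uninjured and 415 at 3 dpi. The Lrrc15 group had 1258 CPM of Lox at 3 dpi and 547 at 7 dpi. The 341 Lrrc15 cells at 3 dpi were deep, with a median of 17495 UMIs, and whether depth plays a part in their levels was not tested.

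In Uninjured and at 3 dpi the highest Lox level of the groups was in the tendon-marked cells. The Tnmd group had 1305 CPM (1209 to 1406) from 52 cells in Uninjured, 1649 (1551 to 1751) from 60 cells at 3 dpi and 522 (482 to 564) from 234 cells at 7 dpi. It was thus already high without injury, unlike the Pi16 and Smoc2 groups, and at 7 dpi it did not differ from the Lrrc15 group beyond counting error (ratio 0.954, 0.881 to 1.03). Loxl4 in the same cells had 59.1 CPM (40.1 to 83.8) in Uninjured, 32.6 (20.2 to 49.9) at 3 dpi and 5.72 (2.30 to 11.8) at 7 dpi, from 31, 21 and 7 UMIs. The Tnmd group also had the most P4ha1 of the groups in Uninjured, with 322 CPM.

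Loxl1, Plod1 and P4ha2 separated the Pi16 and Smoc2 groups in Uninjured muscle. Loxl1 had 627 CPM in the Pi16 group and 314 in the Smoc2 group. Plod1 had 39.1 against 160 CPM and P4ha2 93.0 against 201, so these genes were the higher in the Smoc2 group. At 7 dpi the values were 647 against 445 for Loxl1, 84.9 against 135 for Plod1 and 150 against 154 for P4ha2. The gap was smaller for each of the 3 genes, and for P4ha2 it was within counting error. Plod1, even over time in the lineage as a whole, was 2.17 times (1.93 to 2.44) higher at 7 dpi than in Uninjured inside the Pi16 group and had a ratio of 0.842 (0.778 to 0.909) inside the Smoc2 group.

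Before 3 dpi P4ha3 had at most 9.52 CPM in any of these marker groups with at least 50 kept cells. The cycling cells described below are not such a group. In the Pi16 group it had 2.45 CPM in Uninjured, 5.76 at 1 dpi, 39.7 at 3 dpi and 58.8 at 7 dpi, and in the Smoc2 group 0.990, 0.947, 22.7 and 31.8. The Lrrc15 group had 93.2 CPM (85.7 to 101) at 3 dpi and 86.2 (83.1 to 89.3) at 7 dpi, the highest of the groups at both times. The Pi16 and Smoc2 groups were both present before injury. For 7 dpi over Uninjured the P4ha3 ratio was 24.0 (18.5 to 31.3) in the Pi16 group and 32.1 (22.4 to 47.1) in the Smoc2 group. At 7 dpi P4ha3 was at 14.0 CPM (5.16 to 30.6) in B cells and at 31.9 in Schwann cells, about the Smoc2 level. The part of free RNA in these ratios was not tested, and the Uninjured values are those of the cells kept. Plod2 had 447 CPM at 3 dpi and 280 at 7 dpi in the Lrrc15 group, and at 7 dpi it was 1.92 times (1.77 to 2.08) higher there than in the Pi16 group. Loxl1 was lower in the Lrrc15 group than in the Pi16 group at that time, with 324 against 647 CPM.

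**Figure D4:**
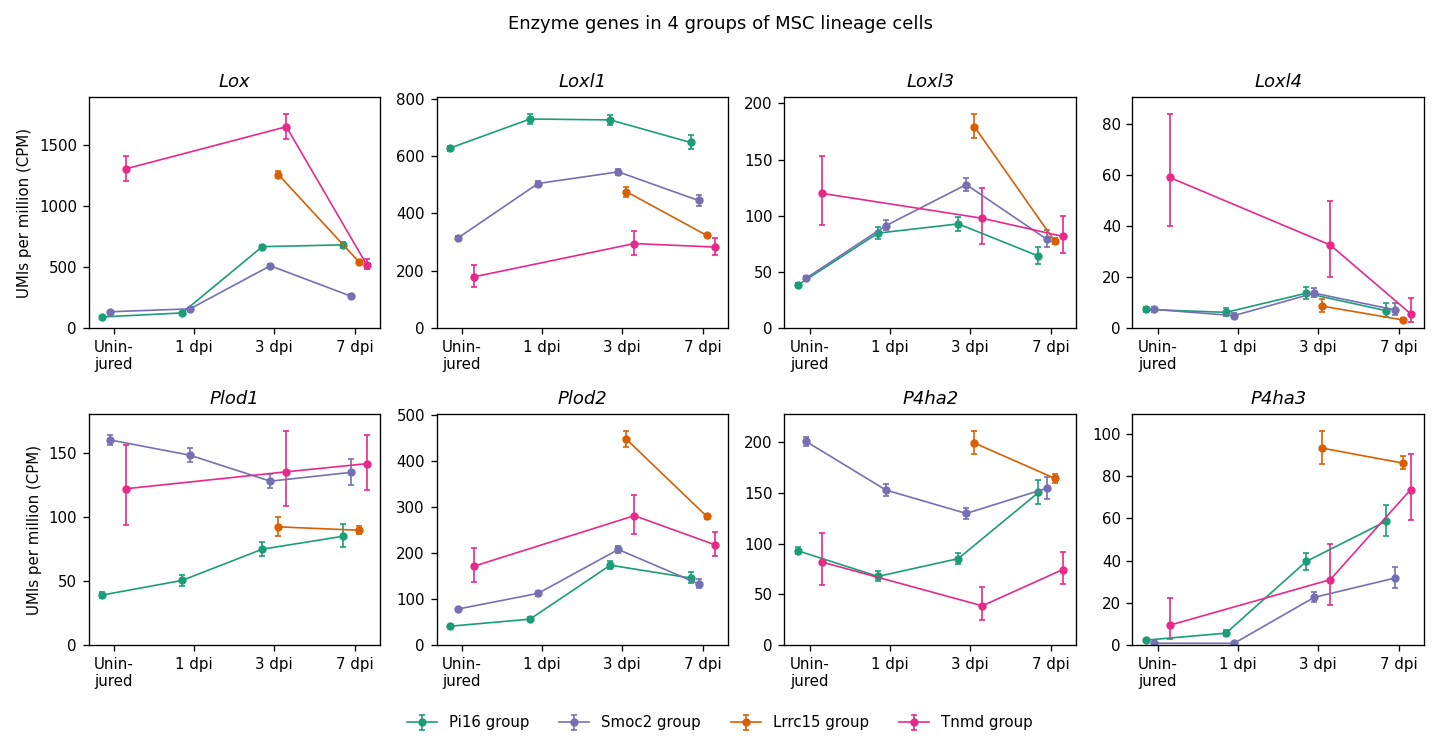
Levels in CPM of 8 of the genes in the Pi16, Smoc2, Lrrc15 and Tnmd groups of MSC lineage cells, with 95% counting intervals, where points are drawn for groups of at least 50 cells and lines join the libraries that have one. Lox in the Tnmd group starts at 1305 CPM, P4ha3 is highest in the Lrrc15 group, and Plod1 and P4ha2 of the Pi16 and Smoc2 groups lie closer together at 7 dpi than in Uninjured.

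Cycling MSC lineage cells, those with at least 2 of Mki67, Top2a, Birc5 and Ube2c, numbered 94, 117, 836 and 1755. P4ha3 was higher in them than in the other MSC lineage cells in Uninjured, with 10.8 against 1.90 CPM (ratio 5.72, 3.24 to 9.48), and at 1 dpi, with 11.4 against 3.34 (ratio 3.42, 2.12 to 5.32). The ratio was 1.91 (1.77 to 2.07) at 3 dpi and 1.05 (0.978 to 1.13) at 7 dpi. P4ha2 was on the other side in the early libraries, with a ratio of 0.496 in Uninjured and 0.426 at 1 dpi, and above 1 later, with 1.28 at 3 dpi and 1.36 at 7 dpi. Cycling cells were also the deeper ones, with medians of 15934.5, 18466, 18391.5 and 5188 UMIs, and the part of depth in these ratios was not tested. Without the cycling cells as many of the 10 genes passed 2-fold at each time step as with them.

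Chondrocyte-like cells at 7 dpi were compared with MSC lineage cells of the same library, which removes the time point from the comparison but leaves both classes in 1 library. Of the 10 genes 3 were more than 2-fold higher in the chondrocyte-like cells and 1 was lower, where 4.64% of 13825 genes were higher and 7.07% lower and the median log2 ratio was 0.21 for the 10 and -0.17 for all genes. Loxl4 had 47.4 CPM (44.2 to 50.8) against 4.45, a ratio of 10.7 (9.26 to 12.3). Loxl3 had 166 against 77.6 CPM, a ratio of 2.13 (2.04 to 2.24). Plod2 had 483 against 240 CPM, a ratio of 2.01 (1.96 to 2.07). Its counting interval reaches below 2-fold. Loxl1, the elastic fibre enzyme, was 2.55 times (2.45 to 2.66) lower, with 147 against 374 CPM. Lox had 338 against 526 CPM and Loxl2 272 against 381, both lower by less than 2-fold. P4ha1, P4ha2 and Plod1 were 1.31, 1.18 and 1.14 times higher, and P4ha3 had 50.9 against 75.7 CPM. With cells thinned to 1000 UMIs the log2 ratios kept their signs, and Loxl4 alone stayed past 2-fold (3.03), with Loxl3 at 0.90, Plod2 just under the limit and Loxl1 at -0.96.

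Within the chondrocyte-like cells, 474 with at least 5 UMIs of Col10a1, the collagen of hypertrophic cartilage, were set against the remaining 3037. Loxl4 had 146 CPM in the hypertrophic cells and 28.9 in the others, a ratio of 5.07 (4.40 to 5.83). None of the other 9 genes reached 2-fold: Lox was 1.28 times and P4ha2 1.26 times higher, Plod2 had a ratio of 0.871 and P4ha3 of 0.641. The share of all genes past 2-fold between these cells was not worked out, so the count is not read against it. The hypertrophic cells were somewhat deeper, with a median of 4355 against 3247 UMIs. Loxl4 in the other chondrocyte-like cells was still above the 4.45 CPM of the MSC lineage.

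**Figure D5:**
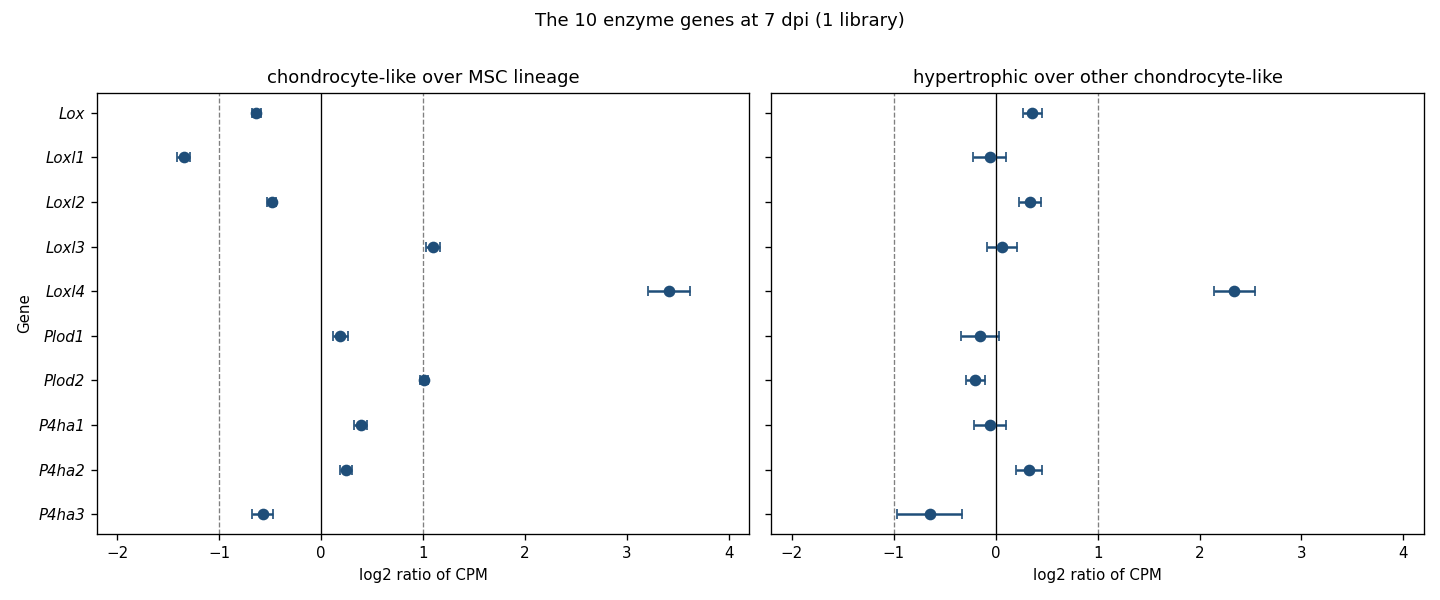
Points give the log2 ratio of CPM at 7 dpi for each gene, chondrocyte-like over MSC lineage cells on the left and hypertrophic over other chondrocyte-like cells on the right, with 95% counting intervals, and dashed lines mark 2-fold. Loxl4 lies farthest to the right in both panels, with 3.41 on the left, and Loxl1 lies beyond the lower line on the left with -1.35.

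Of the pathway genes around the enzymes, 7 of the 45 were higher in chondrocyte-like than in MSC lineage cells and 4 were lower, against 4.64% and 7.07% of all genes tested, so the lower share was near that of all genes. P3h2, which hydroxylates proline of cartilage and basement membrane collagens, was 11.8 times higher, Pcolce2 3.94 times, Colgalt2 3.15 times, Adamts3 2.18 times and Fmod 2.02 times, and Col2a1, which the gate used, and Col11a1 were higher too. Eln, the elastin gene, had a ratio of 0.441, Postn of 0.478, Adamts2, the procollagen N-proteinase, of 0.414 and Tll1 of 0.449. None of the 10 hypoxia response genes passed 2-fold between these classes.

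Other cell classes held less of most of these genes. Endothelial cells had Lox at 69.7 CPM (53.5 to 89.1) at 1 dpi, 154 (129 to 182) at 3 dpi and 243 (206 to 285) at 7 dpi, from 110, 181 and 143 cells. At 1 dpi this was 40.4% of the MSC lineage level, while Col1a1 in the same cells was at 0.941% and Loxl2 at 2.21 CPM from 2 UMIs. At 3 dpi Lox in endothelial cells was at 18.9% (15.8 to 22.4) of its MSC lineage level. Col1a1 was at 14.4% (13.2 to 15.7) and Loxl2 at 15.8% (11.8 to 20.7). At 7 dpi Col1a1 in endothelial cells was at 52.1% of its MSC lineage level. At 3 and 7 dpi mesenchymal RNA in these cells cannot be told apart from their own.

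Schwann cells had Plod1 at 72.4 CPM in Uninjured, 110 at 1 dpi, 94.2 at 3 dpi and 96.6 at 7 dpi, close to the MSC lineage in the last 3 libraries. Col1a1 in Schwann cells was at 51.6% of its MSC lineage level at 7 dpi, against 12.5% in Uninjured. At 7 dpi mesenchymal RNA in Schwann cells cannot be told apart from their own. Monocytes and macrophages had P4ha1 at 32.5 CPM (26.8 to 39.0) in Uninjured, 60.7 (56.9 to 64.8) at 1 dpi, 48.2 at 3 dpi and 41.3 at 7 dpi. B cells of the same libraries had 27.3, 16.4, 19.4 and 23.4 CPM, so the 1 dpi value was above the B cell value and the Uninjured value was not beyond counting error. In Uninjured, however, P4ha1 in B cells was at 22.3% (13.2 to 35.2) of its MSC lineage level, and Col1a1 at 4.10%. In Uninjured monocytes and macrophages the same shares were 26.5% for P4ha1 and 1.41% for Col1a1. How far P4ha1 in B cells is free RNA was not tested, so its B cell level is not read as background. Plod1 in monocytes and macrophages had 14.2, 34.0, 32.8 and 25.7 CPM against 3.03, 6.95, 2.77 and 21.1 in B cells, with overlapping intervals in Uninjured and at 7 dpi. For 1 dpi over Uninjured the ratio in monocytes and macrophages was 1.87 (1.54 to 2.29) for P4ha1 and 2.39 (1.79 to 3.26) for Plod1. Plod2, Loxl4 and P4ha3 were at most 0.975 CPM there in Uninjured and at 1 dpi.

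Muscle cells, which included satellite cells and myoblasts, had Plod2 at 50.1 CPM in Uninjured, 41.0 at 1 dpi, 39.8 at 3 dpi and 78.3 at 7 dpi. At 7 dpi muscle cells with Myog, a gene of differentiating myoblasts, had 124 CPM (97.5 to 154) and those without 45.4 (32.3 to 62.1), a ratio of 2.72 (1.83 to 4.11), whereas at 3 dpi they had 34.6 and 42.6. Loxl1 in muscle cells lay between 55.4 and 101 CPM. At 7 dpi Col1a1 in muscle cells was at 11.2% of its MSC lineage level, against 2.80% at 3 dpi. B cells at 7 dpi had 35.1 CPM of Plod2 (19.7 to 57.9), overlapping muscle cells without Myog, and 60.9 CPM of Loxl1. The part of free RNA in the 7 dpi muscle values was not tested. P4ha3 had 0 UMIs in muscle cells in Uninjured (up to 2.31 CPM) and at 1 dpi (up to 6.87). These limits lie above the MSC lineage levels of 2.07 and 3.84 CPM, so a lower level in muscle cells is not read. Neutrophils at 7 dpi, 131 cells with a median of 1308 UMIs, showed 284 CPM of Lox and 288 of Loxl2, while neutrophils of the first 2 libraries had 3.52 and 2.01 of Lox. Col1a1 in the 7 dpi neutrophils was at 36.6% (34.7 to 38.6) of its MSC lineage level. Lox was at 54.0% (42.7 to 67.3) and Loxl2 at 75.4% (59.8 to 93.9). The 80 Loxl2 UMIs lay in 18 of the 131 cells, and the 79 Lox UMIs in 28. The origin of this RNA was not tested.

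The genes most like each enzyme over the 34 class and library sums were found by Pearson correlation of log2(CPM + 1) among 9370 genes. The sums share libraries and classes, so the values describe a pattern and carry no test. P4ha3 was most like Cthrc1 (r = 0.95), Tnn (0.94) and Tnc (0.93), of which Cthrc1 and Tnn are markers of the Lrrc15 group. Plod2 was most like Fkbp10 (0.95), Gpx7 (0.95) and Serpinh1 (0.93), of which Fkbp10 and Serpinh1 encode collagen chaperones of the endoplasmic reticulum. Loxl2 was most like Col6a1 (0.98), Col3a1 (0.98) and Col6a2 (0.97), Loxl1 like Fbn1 (0.95), Fstl1 (0.94) and Bmp1 (0.93), and Lox like Col8a1 (0.94), Bgn (0.92) and Mgp (0.91). P4ha2 was most like Fstl1 (0.95), Ccdc80 (0.95) and Col5a2 (0.94), and Loxl3 like Yipf5 (0.93), P3h3 (0.90) and Efemp2 (0.90). The lowest leading values belonged to Loxl4 with Smpd3 (0.85), P4ha1 with Nid2 (0.86) and Plod1 with Tmem159 (0.89).

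The genes lie apart on mouse GRCm38: Lox on chromosome 18 (52516067 to 52529867), Loxl1 on 9 (58287738 to 58313186), Loxl2 on 14 (69609068 to 69695834), Loxl3 on 6 (83034173 to 83052562), Loxl4 on 19 (42593982 to 42612813), Plod1 on 4 (147909753 to 147936767), Plod2 on 9 (92542223 to 92608428), P4ha1 on 10 (59323296 to 59373304), P4ha2 on 11 (54100095 to 54131665) and P4ha3 on 7 (100285520 to 100319699). All 10 are annotated as protein coding, and counts cover the whole gene without telling exons apart.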

How the data were processed

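The deposited values are unscaled UMI counts, 1 matrix of genes by called cells per library. The authors made these counts with Cell Ranger 5.0.0 and STAR; mm10 and Seurat 3.1.1 are named in the processing notes, and whether the deposited counts precede the read down-sampling named in the methods is not stated. The authors' cell names were not used here.

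Cells were kept with log10 UMIs and genes within 2 SD of their library mean and at most 10% mitochondrial UMIs. Scrublet (scanpy 1.11.5) scored doublets, and cells among the top 7.5% of scores in their library were left out. This left 10307, 9641, 12604 and 20301 cells. A cell went to the class with most of its 6 markers detected, with at least 2 needed and ties unassigned, and chondrocyte-like cells also needed 5 UMIs of Col2a1. In the order of time 266, 610, 1882 and 4333 cells stayed unassigned. Groups of MSC lineage cells needed 2 of 4 markers. UMIs were summed per class and library and divided by all UMIs of those cells (CPM). Gene intervals are exact Poisson, shares Clopper-Pearson and ratios exact conditional binomial, all at 95% and for counting error only. A sum of 0 was set at a floor of 3 UMIs. The ratio step was tested on simulated Poisson counts drawn for MSC lineage cells at 1 dpi against Uninjured with 13885 genes. Intervals covered 97.5% of changed and 95.2% of unchanged genes. The intervals assume such counts, so this checks the computation only, and spread between cells or muscles was not simulated. Alternatives covered doublets, cell limits, gates, thinning to 1000 UMIs, scaling, free RNA, the fold and the minimum of UMIs. The genes named are the 10 enzymes, those of 45 pathway genes past 2-fold, class markers and the 3 genes most like each enzyme, with a few others named for contrast after their values were seen. The enzymes and lists were chosen with earlier results of these data known. Gene positions are from GENCODE M21 (99.6% of identifiers matched). Python 3.11.15, numpy 2.4.6, scipy 1.17.1, pandas 2.3.3, anndata 0.12.19 and matplotlib 3.10.9 were used.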

Additional observations from a re-analysis of the deposited data

How the results depend on the processing

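All 13 log2 ratios past 2-fold kept their sign under each of the 12 alternative settings in which they could be computed. The limit of 1.5-fold and the minimum of 10 UMIs change which genes are called and not the ratios, so under these the signs could not change. Thinning every cell to 1000 UMIs changed the counts most: higher genes for 1 dpi over Uninjured went from 1 to 0 (Loxl3), those for 7 dpi over 3 dpi from 0 to 1 (P4ha3) and lower ones from 1 to 0 (Loxl4), while in chondrocyte-like over MSC lineage cells higher ones went from 3 to 1 and lower ones from 1 to 0. Median-of-ratios scaling also left 0 higher at 1 dpi. With every deposited barcode 1 gene (Loxl4) was lower at 7 dpi than in Uninjured. Subtracting the CPM of B cells gave 2 lower genes for 7 dpi over 3 dpi (Loxl3, Loxl4), and adding chondrocyte-like cells to the MSC lineage gave 0. A limit of 1.5-fold gave 2 higher and 0 lower for 1 dpi over Uninjured, 5 and 0 for 3 dpi over 1 dpi, 1 and 4 for 7 dpi over 3 dpi, 4 and 1 for 7 dpi over Uninjured and 3 and 2 in chondrocyte-like over MSC lineage cells. The cause of these changes was not tested. The share of all genes past 1.5-fold was not worked out, so the counts at that limit are not read as high or low. The setting without cycling cells was chosen after seeing the data. No paired analysis was possible because each time point has 1 library, and for the same reason no library could be left out. Library, time point and depth cannot be told apart, and Loxl4 and the Uninjured P4ha3 rest on few UMIs. At 7 dpi the B cell levels, whose origin was not tested, set a floor under which the levels of blood cells are not read.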

Other observations

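Cells that the gates left unassigned also held these genes. Lox had 111 CPM in the 266 unassigned cells of Uninjured, 43.3 at 1 dpi, 168 at 3 dpi and 447 in the 4333 unassigned cells at 7 dpi, where 533 of them tied between the MSC lineage and the chondrocyte-like class. P4ha3 in the same cells had 6.03, 0.534, 8.49 and 52.0 CPM. Unassigned cells at 7 dpi were shallow, with a median of 1783 UMIs.

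Pericytes and smooth muscle cells at 7 dpi (560 cells) had 206 CPM of Loxl2, 146 of Lox and 43.9 of P4ha3. The 111 such cells of Uninjured had 11.0, 19.8 and 0 (up to 4.07). Col1a1 in the 7 dpi cells was at 42.7% of its MSC lineage level against 2.1% in Uninjured.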
